A study of Mus musculus with 41 samples.

Results

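The genes described here encode the extracellular and cell-surface metalloproteases of fetal mouse lung and their inhibitors: the matrix metalloproteases (Mmp), the ADAM proteases, the secreted ADAMTS proteases, the ADAMTS-like proteins (Adamtsl) and the tissue inhibitors of metalloproteases (Timp). They were taken by symbol, each being one of these 5 family names followed by a number, from the count tables, which gave 84 of 24371 genes: 33 Adam, 23 Mmp, 19 Adamts, 5 Adamtsl and 4 Timp genes. The active proteases among them hold a zinc ion at the active site and are made as inactive precursors. Some ADAMs, such as ADAM22, are catalytically inactive. MMPs cleave collagens and other matrix proteins, ADAMTS proteases cut proteoglycans such as versican and trim procollagens, and membrane-bound ADAMs release growth factors and receptors from the cell surface. ADAMTS-like proteins lack a protease domain and bind fibrillin microfibrils, and TIMPs block the active sites. In the fetal lung, matrix turnover of this kind accompanies the thinning of the mesenchyme and the formation of air sacs before birth.

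The study asked how glucocorticoids act on lung mesenchyme before birth, using dexamethasone, a synthetic glucocorticoid, given to pregnant mice. In its first RNA experiment, 4 pools received 1 mg/kg dexamethasone and 2 pools received saline at E18.5, and lungs of Twist2Cre;Rosa26mT/mG fetuses were taken 2 hours later. Cre expressed from Twist2, a gene of several mesenchymal lineages, switches a membrane reporter to GFP in these fetuses, and the GFP-positive, tdTomato-negative cells were sorted from lungs that had been pooled by genotype. In the second, untreated E18.5 lung cells carrying CD106, the adhesion molecule encoded by Vcam1, were compared with cells lacking it (2 libraries each). A single CD106+ library came from mice given 1 mg/kg dexamethasone, and the time between injection and collection is not given for it. In the third, 15 cells of E18.5 lungs were profiled individually 24 hours after 2 mg/kg dexamethasone at E17.5, beside 11 cells after saline, all from C57Bl6/J mice. No label names the animal a cell came from. Since the labels do not state whether pools and fractions are from different litters, the p-values reflect only how far these libraries spread, which may be technical. Levels are CPM, counts scaled to 1000000 per library, and compare libraries for 1 gene but not genes with each other, since no transcript lengths were used.

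Bulk libraries held 1670896 to 7133941 counts. The glucocorticoid target Fkbp5 stood at 260.2, 176, 187 and 178 CPM in the dexamethasone pools and 28.7 and 40.7 CPM in the saline pools, and Vcam1 at 551 and 687 CPM in the CD106+ libraries and 1.35 and 3.00 CPM in the CD106- libraries. In the sorted mesenchyme 11 epithelial markers summed to 11.4 to 339 CPM in the dexamethasone pools and 39.5 to 310.0 CPM in the saline pools. Epcam stood at 0 to 11.7 CPM over all pools. The 10 leukocyte markers summed to 13.6 to 29.8 CPM in the dexamethasone pools and 25.1 to 142 CPM in the saline pools. Ptprc stood at 0 to 12.2 CPM. Other genes differed between the mesenchymal pools: the 9 chondrocyte markers summed to 18 to 376 CPM in the dexamethasone pools and 604 to 1447 CPM in the saline pools, and the female-specific RNA Xist ranged from 6.59 to 11111 CPM in the dexamethasone pools and from 20879.6 to 33133 CPM in the saline pools. Neither range overlapped between the groups. The 6 smooth muscle markers summed to 1059 to 1164 CPM in the dexamethasone pools and 1666 to 2017 CPM in the saline pools. The 6 cardiac muscle markers summed to 156 to 280 CPM in the dexamethasone pools and 328 to 379 CPM in the saline pools. These muscle sums did not overlap either, while the other marker sums did. The part of the muscle markers in the members' values was not tested. Ddx3y, a gene of the Y chromosome, stood at 106, 74.4, 131 and 174 CPM in the dexamethasone pools and 1.20 and 0 CPM in the saline pools. Male RNA was thus present in every dexamethasone pool and nearly absent from the saline pools. Sex and treatment therefore cannot be told apart in these pools. The CD106+ libraries contained epithelial as well as mesenchymal RNA, with the 11 epithelial markers summing to 3094 to 4630 CPM, against 6469 to 7062 CPM in the CD106- libraries. The 10 mesenchymal markers summed to 5901 to 9496 CPM in the CD106+ libraries, against 1089.9 to 1437 CPM in the CD106- libraries.

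At 2 hours after injection, the proteoglycan-cutting proteases Adamts15 and Adamts1, the secreted protease Mmp19 and the microfibril protein Adamtsl2 rose in dexamethasone mesenchyme, and the sheddase Adam19 fell. Of the 84 members, 46 had enough counts to be tested, a filter that can also keep a gene through the group where it is high; 4 were higher in dexamethasone, 1 was lower and 41 did not pass an adjusted p of 0.05 in edgeR's quasi-likelihood test (5 of 46 is 10.9%). Over all 11356 genes tested, 2.69% were called, with 1.95% higher and 0.740% lower. The median log2 fold change was 0.04 over the members tested and -0.01 over all genes tested.

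Adamts15, whose enzyme cleaves versican and aggrecan, lies on chromosome 9 from 30899155 to 30922452 (GRCm38). It had 360.3, 202, 196 and 204 CPM in the dexamethasone pools, against 62.2 and 57.6 CPM in the saline pools. Every dexamethasone pool lay above both saline pools by a factor of at least 3, and dexamethasone pool 1 stood apart from the other 3 (log2 fold change 2.07, SE 0.30, adjusted p = 6.2e-04, edgeR). Adamts1 (chromosome 16, 85793827 to 85803113), a protease of the same versican-cutting group, had 1924, 2117, 1168 and 1485 CPM in the dexamethasone pools, against 717 and 884 CPM in the saline pools. All 4 dexamethasone pools again exceeded both saline pools, pools 1 and 2 by more than pools 3 and 4 (log2 fold change 1.13, SE 0.25, adjusted p = 0.019, edgeR). Of the other proteoglycanases, Adamts9 had 345, 414, 361 and 334 CPM in the dexamethasone pools, against 241 and 284 CPM in the saline pools, with no overlap but without passing the test (log2 fold change 0.53, SE 0.21, adjusted p = 0.24, edgeR). Adamts5 had 26.0, 45.2, 37.4 and 56.2 CPM in the dexamethasone pools, against 108 and 57.2 CPM in the saline pools (log2 fold change -0.95, SE 0.35, adjusted p = 0.20, edgeR), and Adamts8 averaged 28.7 ± 12.2 CPM in the dexamethasone pools and 12.2 ± 9.05 CPM in the saline pools (SD of 4 and 2 libraries) (log2 fold change 1.32, SE 0.58, adjusted p = 0.31, edgeR). Adamts20 ranged from 2.38 to 9.05 CPM in the dexamethasone pools, below both saline pools, which averaged 16.6 CPM. It did not pass either (log2 fold change -1.57, SE 0.62, adjusted p = 0.23, edgeR). Within this group, then, 2 of 6 members tested passed as higher and none as lower, where 2.69% of all genes tested were called. Adamts5 and Adamts20 were lower without passing, and members that did not pass may still have changed.

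Mmp19 (chromosome 10, 128790910 to 128800827), a secreted MMP, had 84.4, 78.8, 95.5 and 91.8 CPM in the dexamethasone pools, against 35.8 and 41.1 CPM in the saline pools. The groups did not overlap and the 4 dexamethasone pools lay close together (log2 fold change 1.25, SE 0.28, adjusted p = 0.022, edgeR). Mmp19 shares genomic sequence with Tmem198b, which had at most 15.7 CPM in any bulk library, and its counts were fractional in 10 of 11 libraries, so its level is uncertain. Mmp2, a gelatinase that degrades basement membrane collagen, had 381, 293, 196 and 163 CPM in the dexamethasone pools, against 120.3 and 241 CPM in the saline pools, with saline pool 2 inside the dexamethasone range (log2 fold change 0.59, SE 0.33, adjusted p = 0.48, edgeR). Mmp14, the membrane protease that activates pro-MMP2, averaged 101 ± 21.1 CPM in the dexamethasone pools and 138 ± 20.4 CPM in the saline pools (SD of 4 and 2 libraries) (log2 fold change -0.39, SE 0.26, adjusted p = 0.58, edgeR), and Mmp11 averaged 26.1 ± 8.46 CPM in the dexamethasone pools and 30.5 ± 16.8 CPM in the saline pools (SD of 4 and 2 libraries) (log2 fold change -0.15, SE 0.43, adjusted p = 0.93, edgeR). None of the 3 membrane MMPs tested passed.

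Adamtsl2 (chromosome 2, 27079336 to 27108981) encodes a microfibril-associated protein that is mutated in human geleophysic dysplasia. It had 60.8, 50.0, 46.8 and 44.5 CPM in the dexamethasone pools, against 18.6 and 20.2 CPM in the saline pools. The lowest dexamethasone pool was above the higher saline pool (log2 fold change 1.45, SE 0.35, adjusted p = 0.033, edgeR). Its relatives did not pass: Adamtsl4, whose human counterpart is mutated in isolated lens dislocation, had 100.1, 103, 123 and 111 CPM in the dexamethasone pools, against 71.2 and 24.7 CPM in the saline pools (log2 fold change 1.24, SE 0.36, adjusted p = 0.085, edgeR), and Adamtsl1 had 36.5, 43.8, 34.7 and 59.2 CPM in the dexamethasone pools, against 67.6 and 25.5 CPM in the saline pools (log2 fold change -0.04, SE 0.40, adjusted p = 0.98, edgeR). Saline pool 1 was much the higher of the saline pools for both.

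**Figure D1:**
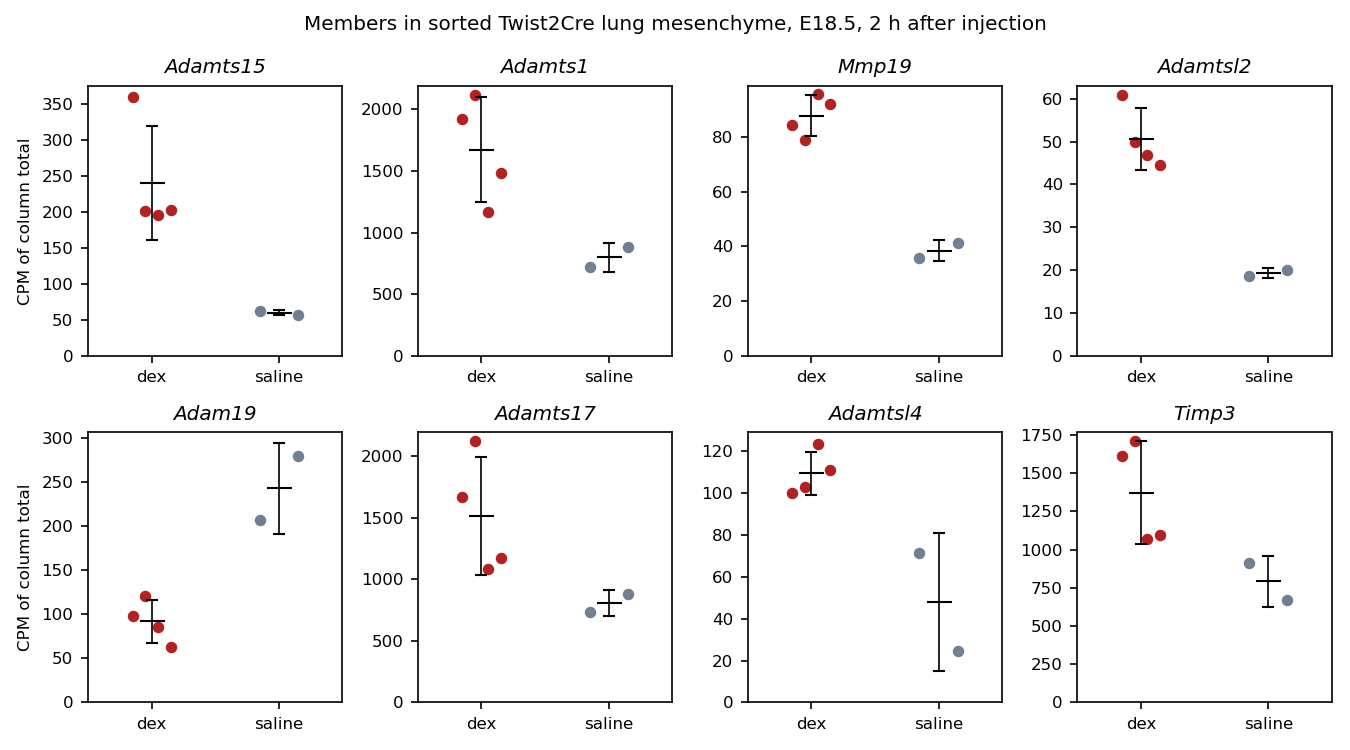
CPM of column total in each pool of sorted Twist2Cre mesenchyme, 2 hours after dexamethasone (n = 4, left) or saline (n = 2, right), for the 5 members past the threshold and 3 between adjusted p of 0.05 and 0.1; points are pools, horizontal lines means and bars SD. For Adamts15 the dexamethasone pools lie between 196 and 360 CPM and the saline pools at 57.6 and 62.2 CPM.

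Among the ADAMs, Adam19, also called meltrin beta, which sheds neuregulins (chromosome 11, 46054502 to 46147347), had 98.2, 121, 85.1 and 63.0 CPM in the dexamethasone pools, against 206 and 279 CPM in the saline pools. Both saline pools lay above all 4 dexamethasone pools (log2 fold change -1.34, SE 0.25, adjusted p = 0.0070, edgeR). Adam19 overlaps the microRNA gene Mir8100, which had no counts in any bulk library. The counts of Adam19 itself were fractional in 7 of 11 bulk libraries, so its level is uncertain too. Adam12, the related meltrin alpha, had 401, 381, 307 and 295 CPM in the dexamethasone pools, against 284 and 514 CPM in the saline pools, with the dexamethasone pools between the saline pools (log2 fold change -0.13, SE 0.24, adjusted p = 0.89, edgeR). The sheddases Adam10 and Adam17, which release Notch receptors and EGF-family ligands or TNF, averaged 85.2 ± 17.7 CPM in the dexamethasone pools and 72.0 ± 10.4 CPM in the saline pools (SD of 4 and 2 libraries) and 89.9 ± 12.3 CPM in the dexamethasone pools and 71.5 ± 16.4 CPM in the saline pools (SD of 4 and 2 libraries), and neither passed (log2 fold changes 0.31 and 0.40, edgeR adjusted p = 0.71 and 0.58). Adam33 ranged from 0.710 to 13.5 CPM in the dexamethasone pools, against 11.5 and 29.3 CPM in the saline pools, and did not pass (edgeR adjusted p = 0.44).

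The ADAMTS procollagen N-proteinases, which trim fibrillar procollagens, gave no call: Adamts2 averaged 174 ± 34.4 CPM in the dexamethasone pools and 152 ± 8.28 CPM in the saline pools (SD of 4 and 2 libraries), Adamts3 45.4 ± 2.43 CPM in the dexamethasone pools and 38.8 ± 18.4 CPM in the saline pools (SD of 4 and 2 libraries) and Adamts14 239 ± 61.5 CPM in the dexamethasone pools and 131 ± 93.0 CPM in the saline pools (SD of 4 and 2 libraries), where the saline pools were at 197 and 65.4 CPM (edgeR adjusted p = 0.72, 0.79 and 0.36). The remaining ADAMTS genes gave none either, out of 6 tested. Adamts17, which is mutated in a human Weill-Marchesani-like syndrome, had 1669.9, 2119, 1079 and 1175 CPM in the dexamethasone pools, against 734 and 878 CPM in the saline pools. Its groups did not overlap and its adjusted p lay just above the threshold (log2 fold change 0.97, SE 0.26, adjusted p = 0.059, edgeR). Adamts6 had 12.1, 15.0, 21.2 and 6.79 CPM in the dexamethasone pools, against 33.5 and 42.0 CPM in the saline pools, likewise without overlap and without passing (log2 fold change -1.40, SE 0.44, adjusted p = 0.10, edgeR). Adamts12 averaged 221 ± 23.7 CPM in the dexamethasone pools and 205 ± 10.3 CPM in the saline pools (SD of 4 and 2 libraries), and Adamts10 averaged 107 ± 26.7 CPM in the dexamethasone pools and 96.5 ± 18.8 CPM in the saline pools (SD of 4 and 2 libraries). Adamts7 averaged 14.2 ± 6.39 CPM in the dexamethasone pools and 23.1 ± 3.93 CPM in the saline pools (SD of 4 and 2 libraries) and Adamts19 averaged 23.0 ± 6.95 CPM in the dexamethasone pools and 19.5 ± 14.9 CPM in the saline pools (SD of 4 and 2 libraries), with adjusted p of 0.82, 0.82, 0.63 and 0.87 for these 4 genes in edgeR.

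The inhibitors did not pass either. Timp3, which binds to the matrix and inhibits ADAM17 and several ADAMTS proteases, had 1613, 1711, 1068 and 1097 CPM in the dexamethasone pools, against 911 and 673 CPM in the saline pools. No pool of either group overlapped, and the adjusted p lay between 0.05 and 0.1 (log2 fold change 0.84, SE 0.25, adjusted p = 0.090, edgeR), as it also did for Adamts17 and Adamtsl4. Timp3 overlaps Syn3, which had 13.3 to 61.6 CPM over the bulk libraries. Timp2, the inhibitor that also links pro-MMP2 to MMP14, averaged 396 ± 94.6 CPM in the dexamethasone pools and 476 ± 121 CPM in the saline pools (SD of 4 and 2 libraries) (log2 fold change -0.22, SE 0.25, adjusted p = 0.79, edgeR). Timp4 had 9.71, 1.70, 6.30 and 8.30 CPM in the dexamethasone pools, against 22.7 and 11.5 CPM in the saline pools (log2 fold change -1.33, SE 0.63, adjusted p = 0.36, edgeR), and Timp1 had at most 4.05 CPM in any pool and was too low to test. Timp4 and Timp1 overlap Syn2 and Syn1, and the use of strand in counting is not known.

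Leaving out each library in turn kept Adamts15 past the threshold all 6 times (edgeR adjusted p = 7.4e-04 to 0.015), Adam19 5 times (lost without saline pool 2, 0.083), Adamts1 and Mmp19 3 times each and Adamtsl2 once, without dexamethasone pool 3 (0.044; 0.051 to 0.13 without any other library). Adamts1 was lost without dexamethasone pool 1 (0.057) or saline pools 1 (0.15) or 2 (0.070), and Mmp19 without dexamethasone pool 4 (0.064) or saline pools 1 (0.11) or 2 (0.091). With the chondrocyte marker level as a covariate no member passed, the edgeR log2 fold change of Adamts15 then being 1.49 (adjusted p = 0.33), while 5 members had an unadjusted p under 0.05. With Xist as a covariate, Adamts15, Adamts1, Adamts17 and Timp3 passed and Mmp19, Adamtsl2 and Adam19 did not (edgeR adjusted p = 0.22, 0.11 and 0.29). Their part in the results was not tested beyond this, and in bulk pools fewer cells of a type and less RNA per cell cannot be told apart.

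The RefSeq promoter table (GRCm38.p6, 250 bases before to 50 after a gene's start) held windows for 53 of the 84 members, 58 windows in all. Those of Adamts1, Adamtsl2 and Adam19 are shown because these genes were called in mesenchyme; Adamts15 and Mmp19 were called too. Capitals mark the TATA box TATAAA and the GC box GGGCGG on either strand. The Adamts1 window is on the minus strand of chr16:85803064-85803363, the Adamtsl2 window on the plus strand of chr2:27079129-27079428 and the Adam19 window, the one at the gene's annotated start, on the plus strand of chr11:46054252-46054551.
Adamts1: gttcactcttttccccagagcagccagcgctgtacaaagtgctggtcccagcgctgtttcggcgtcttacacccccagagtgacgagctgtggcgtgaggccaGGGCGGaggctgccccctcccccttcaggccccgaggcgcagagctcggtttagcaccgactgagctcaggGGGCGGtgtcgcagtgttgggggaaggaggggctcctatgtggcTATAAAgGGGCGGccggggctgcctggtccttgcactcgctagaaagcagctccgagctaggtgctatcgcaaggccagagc
Adamtsl2: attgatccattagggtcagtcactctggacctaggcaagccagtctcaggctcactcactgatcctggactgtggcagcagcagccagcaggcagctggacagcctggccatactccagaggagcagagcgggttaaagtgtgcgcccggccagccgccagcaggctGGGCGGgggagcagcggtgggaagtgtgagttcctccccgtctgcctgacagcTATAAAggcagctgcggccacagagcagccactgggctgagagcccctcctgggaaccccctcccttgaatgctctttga
Adam19: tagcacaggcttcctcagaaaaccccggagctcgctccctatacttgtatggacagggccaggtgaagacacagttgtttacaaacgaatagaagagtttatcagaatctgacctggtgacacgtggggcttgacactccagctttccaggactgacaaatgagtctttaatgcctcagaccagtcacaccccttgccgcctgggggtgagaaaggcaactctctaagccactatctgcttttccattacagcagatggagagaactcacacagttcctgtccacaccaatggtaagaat
Adamts1 and Adamtsl2 each carry a TATA box about 30 bases before the start, at -32 and -30, and Adamts1 has 3 GC boxes to the 1 of Adamtsl2. The Adam19 window shown holds neither motif. Of the other two Adam19 windows in the table, at later starts of the gene, 1 holds a GC box and neither a TATA box. A TATAAA was present in 13.6% of all 32851 windows in the table and 25.9% of the member windows, and a GGGCGG in 35.7% of all windows and 46.6% of the member windows. The hexamer AGAACA, the core of glucocorticoid receptor sites, searched on both strands, was in none of the 3 windows shown, and in 19.0% of all windows and 19.0% of the member windows. The full element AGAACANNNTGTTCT, of which that hexamer is a part, was in 3 windows of the whole table and in no member window.

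Genes that act with the proteases were read by list in the same mesenchyme, where 2.69% of all 11356 genes tested were called. Of 13 cell-surface and extracellular regulators, 10 were tested and none passed, with a median log2 fold change of 0.28; the endocytic receptor gene Lrp1 had 1283, 756, 807 and 642 CPM in the dexamethasone pools, against 502 and 512 CPM in the saline pools (log2 fold change 0.84, edgeR adjusted p = 0.10). None of 11 proprotein convertase and ADAM trafficking genes, 3 plasminogen system genes or 8 proteoglycan substrate genes tested passed. Among 9 other metalloproteases and partners tested, 1 fell: Thsd4, an ADAMTS-like microfibril gene that the symbol rule does not include, had 49.5, 22.4, 68.4 and 56.2 CPM in the dexamethasone pools, against 143 and 129 CPM in the saline pools. Its groups did not overlap (log2 fold change -1.41, edgeR adjusted p = 0.032). Among 4 ADAM-shed ligands tested, Jag1, a Notch ligand, fell, with 14.0, 13.3, 21.6 and 18.9 CPM in the dexamethasone pools, against 67.0 and 47.3 CPM in the saline pools (log2 fold change -1.71, edgeR adjusted p = 0.015).

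The CD106 fractions differed in many more members. In CD106+ cells 14 members were higher and 2 were lower than in CD106- cells, out of 44 tested (36.4%), and 28 did not pass. Over all 12364 genes tested 10.0% were called, 6.67% higher and 3.35% lower. The members' median log2 difference was 0.32 and that of all genes 0.05. Most of the members that were higher were ADAMTS genes: 3 of 7 proteoglycanases, 2 of 3 procollagen N-proteinases and 5 of 7 others.

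Among these ADAMTS genes, Adamts17 had 216 and 328 CPM in the CD106+ libraries, against 24.8 and 25.3 CPM in the CD106- libraries. This was the smallest p of any member (log2 fold change 3.38, SE 0.30, adjusted p = 1.3e-08, edgeR). Adamts19, which is expressed in developing heart valves, had 34.5 and 36.6 CPM in the CD106+ libraries, against 0.769 and 2.00 CPM in the CD106- libraries (log2 fold change 4.58, SE 0.53, adjusted p = 9.6e-07, edgeR), and Adamts12 had 68.6 and 118 CPM in the CD106+ libraries, against 4.23 and 10.5 CPM in the CD106- libraries (log2 fold change 3.58, SE 0.41, adjusted p = 3.8e-06, edgeR). For all 3 genes both CD106- libraries lay far below both CD106+ libraries. Adamts10, which binds fibrillin, had 55.3 and 102 CPM in the CD106+ libraries, against 15.8 and 22.5 CPM in the CD106- libraries. Adamts7 had 7.02 and 31.0 CPM in the CD106+ libraries, against 3.08 and 2.83 CPM in the CD106- libraries, with CD106+ library 2 well above CD106+ library 1. The edgeR log2 fold changes were 1.97 and 2.60 (adjusted p = 2.4e-04 and 0.0075), and Adamts7 was lost without CD106+ library 2 (0.41).

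The procollagen N-proteinase Adamts2 had 47.1 and 121 CPM in the CD106+ libraries, against 7.50 and 15.0 CPM in the CD106- libraries. Its lower CD106+ library was still more than 3 times the higher CD106- library (log2 fold change 2.81, SE 0.43, adjusted p = 3.0e-04, edgeR). Adamts3, which also takes part in VEGF-C processing, had 34.7 and 45.6 CPM in the CD106+ libraries, against 17.7 and 10.3 CPM in the CD106- libraries (log2 fold change 1.48, SE 0.38, adjusted p = 0.011, edgeR), and this call was lost without CD106- library 2 (0.30). The proteoglycanase Adamts1 had 749.5 and 1025 CPM in the CD106+ libraries, against 229 and 333 CPM in the CD106- libraries, without overlap (log2 fold change 1.60, SE 0.32, adjusted p = 0.0012, edgeR), a call lost without CD106- library 1 (0.28). Adamts20 and Adamts4 were called at low levels, with 7.02 and 7.71 CPM in the CD106+ libraries, against 0.192 and 0.333 CPM in the CD106- libraries for Adamts20 and 3.41 and 4.77 CPM in the CD106+ libraries, against 0 and 0.666 CPM in the CD106- libraries for Adamts4 (log2 fold changes 4.63 and 3.41, edgeR adjusted p = 0.0014 and 0.038). The Adamts4 call held in 1 of 4 fits that left out a library, with adjusted p up to 0.49.

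The MMPs and ADAMs contributed 4 genes that were higher. Mmp2 had 183 and 542 CPM in the CD106+ libraries, against 22.5 and 46.3 CPM in the CD106- libraries. CD106+ library 2 was at nearly 3 times CD106+ library 1, and both exceeded the CD106- libraries (log2 fold change 3.30, SE 0.57, adjusted p = 0.011, edgeR). Mmp19 had 20.1 and 31.1 CPM in the CD106+ libraries, against 4.80 and 5.21 CPM in the CD106- libraries (log2 fold change 2.30, SE 0.47, adjusted p = 0.0016, edgeR). Adam19 had 281 and 378 CPM in the CD106+ libraries, against 30.8 and 55.9 CPM in the CD106- libraries (log2 fold change 2.86, SE 0.32, adjusted p = 9.6e-07, edgeR), and Adam12 had 652 and 838 CPM in the CD106+ libraries, against 191 and 211 CPM in the CD106- libraries (log2 fold change 1.84, SE 0.31, adjusted p = 1.3e-04, edgeR; 0.069 without CD106- library 1). In each of these genes the fractions did not overlap.

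In the other direction, Adamts18, whose loss disturbs lung branching in mice, had 29.7 and 23.7 CPM in the CD106+ libraries, against 102 and 95.5 CPM in the CD106- libraries. Both CD106+ libraries lay far below both CD106- libraries (log2 fold change -1.92, SE 0.30, adjusted p = 6.2e-05, edgeR). The same gene had at most 0.680 CPM in any mesenchymal pool, so its counts came almost entirely from the CD106 libraries. Epcam, an epithelial surface marker, stood at 205 and 198 CPM in the CD106+ libraries and 492 and 341 CPM in the CD106- libraries. Adamtsl1 had 25.9 and 17.9 CPM in the CD106+ libraries, against 46.9 and 55.1 CPM in the CD106- libraries (log2 fold change -1.26, SE 0.35, adjusted p = 0.018, edgeR), and lost its call without CD106- library 1 (0.084) or 2 (0.28).

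Members that did not pass between the fractions included the broadly expressed sheddases and inhibitors. Adam10 averaged 172 ± 29.5 CPM in CD106+ cells and 223 ± 22.8 CPM in CD106- cells (SD of 2 and 2 libraries), Adam17 152 ± 1.01 CPM in CD106+ cells and 185 ± 0.230 CPM in CD106- cells (SD of 2 and 2 libraries) and Adam9 51.3 ± 17.0 CPM in CD106+ cells and 51.0 ± 0.345 CPM in CD106- cells (SD of 2 and 2 libraries) (edgeR adjusted p = 0.49, 0.59 and 0.96). Timp3 had 523 and 470.3 CPM in the CD106+ libraries, against 772 and 873 CPM in the CD106- libraries, with both CD106+ libraries below both CD106- libraries (log2 fold change -0.77, SE 0.31, adjusted p = 0.14, edgeR), and Timp2 had 181 and 217 CPM in the CD106+ libraries, against 149.7 and 153 CPM in the CD106- libraries (log2 fold change 0.35, SE 0.27, adjusted p = 0.56, edgeR). Mmp14 averaged 129 ± 12.6 CPM in CD106+ cells and 145 ± 23.4 CPM in CD106- cells (SD of 2 and 2 libraries) and Mmp11 57.3 ± 12.1 CPM in CD106+ cells and 69.5 ± 4.82 CPM in CD106- cells (SD of 2 and 2 libraries) (edgeR adjusted p = 0.75 and 0.63). Adamts9 averaged 312 ± 23.8 CPM in CD106+ cells and 275 ± 50.7 CPM in CD106- cells (SD of 2 and 2 libraries), Adamts5 26.1 ± 10.5 CPM in CD106+ cells and 35.0 ± 0.544 CPM in CD106- cells (SD of 2 and 2 libraries) and Adamts6 37.5 ± 11.3 CPM in CD106+ cells and 44.0 ± 3.97 CPM in CD106- cells (SD of 2 and 2 libraries) (edgeR adjusted p = 0.88, 0.60 and 0.77). Adamts15, which had the smallest p of any member in mesenchyme, was low in both fractions, with 10.4 and 11.9 CPM in the CD106+ libraries, against 3.08 and 10.7 CPM in the CD106- libraries (log2 fold change 0.63, SE 0.58, adjusted p = 0.66, edgeR).

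**Figure D2:**
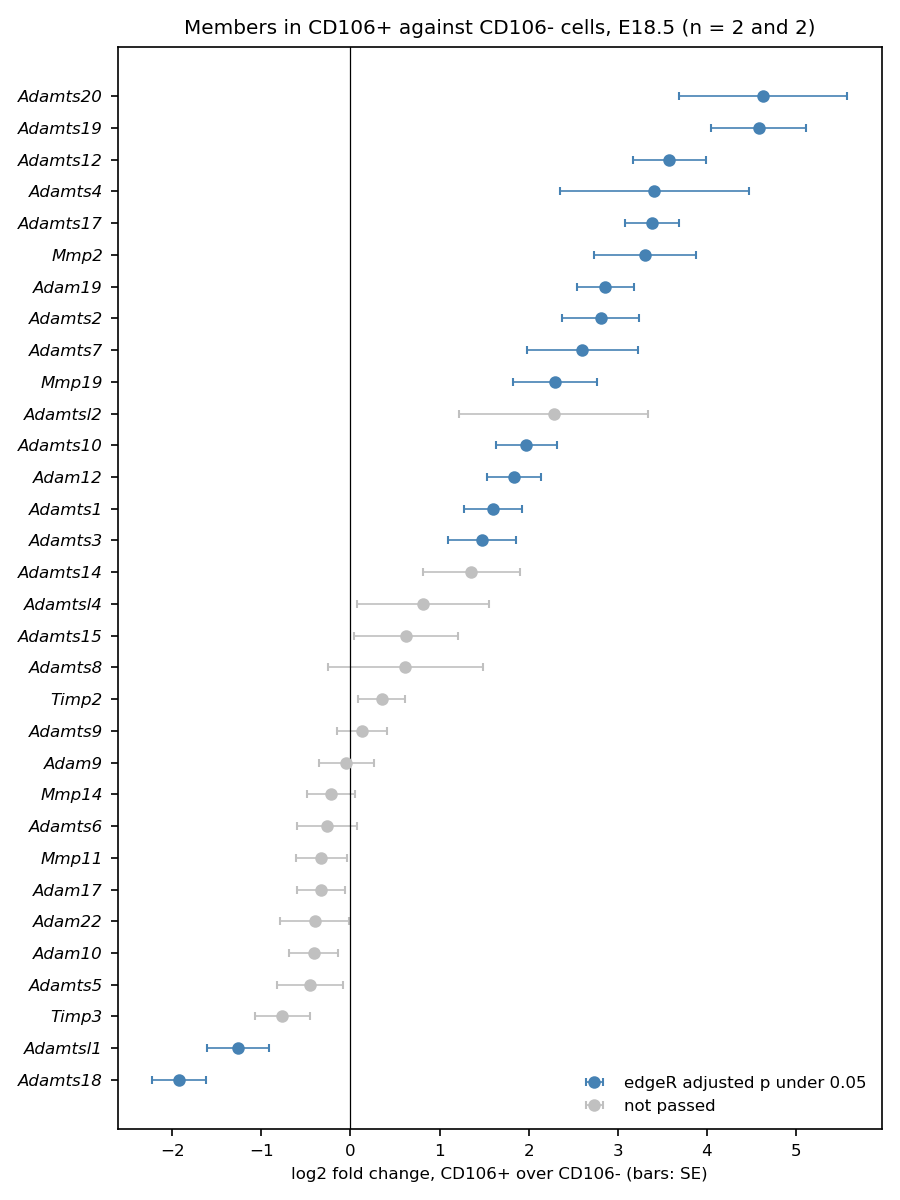
The edgeR log2 fold change of members in CD106+ over CD106- cells (n = 2 and 2), for members past the threshold or with a mean of 20 CPM or more in a bulk group; bars are SE, blue marks adjusted p under 0.05. Adamts20 and Adamts19 lie farthest to the right, at 4.63 and 4.58, and Adamts18 farthest to the left, at -1.92.

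The fractions also differed in cell type markers, whose part in the members' differences was not tested. All 9 mesenchymal markers tested were higher in CD106+ cells, 7 of 11 epithelial markers and 4 of 4 erythroid markers were lower, and 5 of 7 endothelial markers were higher, though they summed to only 95.6 to 118 CPM in CD106+ cells and 14.5 to 20.0 CPM in CD106- cells. The CD106+ libraries also differed from each other: the 6 cardiac muscle markers summed to 971 CPM in library 1 and 71.4 CPM in library 2. In CD106- libraries 1 and 2 they summed to 92.9 and 23.0 CPM. The lists of partner genes moved as follows. Of 10 regulators tested, 5 were higher and none lower, with a median log2 fold change of 0.60; among them were the matrix protein gene Thbs2 (1.70), the hyaluronan receptor gene Cd44 (1.35), the protease trap gene A2m (1.82) and Lrp1 (1.72). Of 8 proteoglycan substrate genes tested, 5 were higher and none lower, including versican, Vcan, with 2277 and 2375 CPM in the CD106+ libraries, against 653 and 892 CPM in the CD106- libraries (log2 fold change 1.54, edgeR adjusted p = 0.0038). Biglycan (Bgn), decorin (Dcn) and lumican (Lum) were higher by 2.52, 2.29 and 2.79 on the log2 scale. Of 11 other metalloproteases and partners tested, 4 were higher, among them the procollagen C-proteinase enhancer genes Pcolce and Pcolce2 and the membrane metallopeptidase gene Phex (71.0 and 126 CPM in the CD106+ libraries, against 0.962 and 4.16 CPM in the CD106- libraries), and Pappa2 was lower (7.22 and 7.43 CPM in the CD106+ libraries, against 28.9 and 28.1 CPM in the CD106- libraries). Pcolce2 had 6.42 and 15.0 CPM in the CD106+ libraries and no counts in the CD106- libraries.

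Of 10 convertase and trafficking genes tested none was higher and 2 were lower, while the median log2 fold change of the list was 0.35. The 2 were Pcsk6, a proprotein convertase (36.1 and 32.1 CPM in the CD106+ libraries, against 99.4 and 71.4 CPM in the CD106- libraries), and Tspan15, the tetraspanin that guides ADAM10 (62.8 and 49.2 CPM in the CD106+ libraries, against 116 and 105 CPM in the CD106- libraries). Of 8 ADAM-shed ligands tested, the EGF receptor ligand genes Tgfa and Ereg were lower, Tgfa with 14.4 and 17.9 CPM in the CD106+ libraries, against 41.9 and 48.8 CPM in the CD106- libraries (log2 fold change -1.53, edgeR adjusted p = 0.0046). In the plasminogen system 1 of 3 genes tested was higher, the serine protease inhibitor gene Serpine2 (156 and 268 CPM in the CD106+ libraries, against 64.2 and 96.7 CPM in the CD106- libraries).

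The dexamethasone CD106+ library is 1 library, set beside the 2 untreated CD106+ libraries without a test. Among the 24 members at 20 CPM or more, 4 were at least 2-fold higher and 7 at least 2-fold lower, on the scale of log2 (CPM + 1); over all 7755 such genes 28.2% passed that fold, 11.3% higher and 16.8% lower. Adamts1 had 2802 CPM in the dexamethasone library, against 749.5 and 1025 CPM in the untreated ones, a log2 ratio of 1.66. Timp3 had 1516 CPM, against 523 and 470.3 CPM in the untreated libraries (1.61). Mmp19 and Adamts10 were the other 2, with 99.8 CPM in the dexamethasone library, against 20.1 and 31.1 CPM in the untreated libraries for Mmp19, and 193 CPM, against 55.3 and 102 CPM for Adamts10. All 4 lay above both untreated libraries.

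The 7 that were lower came from every protease family. Adamts18 had 2.37 CPM in the dexamethasone library, against 29.7 and 23.7 CPM in the untreated libraries. Mmp2 had 104 CPM, against 183 and 542 CPM in the untreated libraries, and Mmp11 had 19.3 CPM, against 48.7 and 65.9 CPM. Adam12 had 302 CPM, against 652 and 838 CPM in the untreated libraries. All of these dexamethasone values lay below both untreated ones. Adamts6 (-1.95), Adamts3 (-1.38) and Adam22, a catalytically inactive ADAM that binds LGI proteins (-1.16), are given by their log2 ratios. Scaling by TMM in place of library totals moved the median log2 ratio of all genes from -0.22 to -0.09 and gave 7 higher and 7 lower, adding Adamts17, Adamts2 and Adamtsl2 to those higher. Over all 7782 genes at 20 CPM or more on that scale, 13.0% were higher and 13.6% lower.

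Among the 24 members, 6 lay above both untreated libraries, 14 below and 4 between them. No such count was made over all genes, so it is not read as a trait of the members. The median log2 ratio was -0.30 over these members and -0.22 over all genes at that level. Of the 5 members called in mesenchyme, 3 reached 20 CPM here, and all 3 had the same sign as in mesenchyme: Adamts1 and Mmp19 higher, and Adam19 lower with 250.4 CPM in the dexamethasone library, against 281 and 378 CPM in the untreated libraries. The Adam19 log2 ratio of -0.39 lay near the medians of -0.30 and -0.22. Of all 306 genes called in mesenchyme, 246 reached 20 CPM and 172 (69.9%) had the same sign. The comparisons share no libraries. Adamts15 stayed low, at 14.5 CPM in the dexamethasone library and 10.4 and 11.9 CPM in the untreated ones, and Adamtsl2 had 19.5 CPM, against 0.802 and 10.1 CPM in the untreated libraries.

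**Figure D3:**
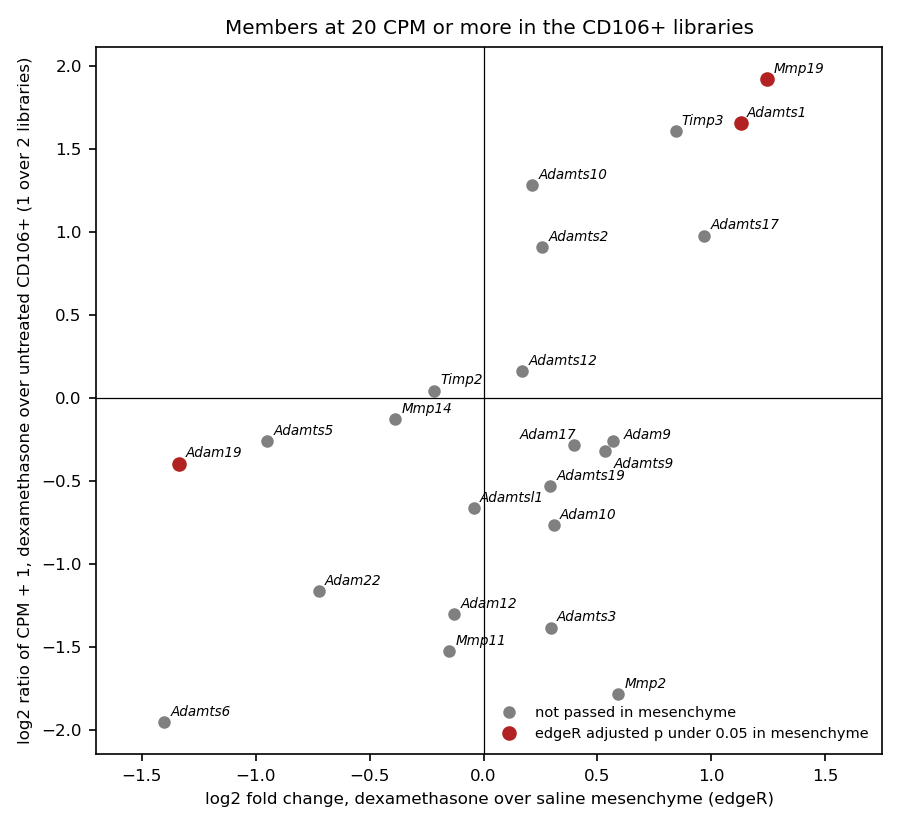
For 23 members at 20 CPM or more in the CD106+ libraries, the edgeR log2 fold change in dexamethasone over saline mesenchyme (horizontal) is plotted with the log2 ratio of CPM + 1 in the dexamethasone over the untreated CD106+ libraries (vertical, 1 over 2 libraries, no test); red marks an adjusted p under 0.05 in mesenchyme. Mmp19 and Adamts1 lie high in both, at 1.25 and 1.13 in mesenchyme. Adam19 lies at -1.34 in mesenchyme and at -0.39 in the CD106+ libraries, where the median of all genes at 20 CPM or more was -0.22.

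The dexamethasone CD106+ library also differed in its cell types. The 8 endothelial markers summed to 2398 CPM, against 95.6 to 118 CPM in the untreated CD106+ libraries, with Pecam1 at 508 CPM, against at most 22.1 CPM. The 11 epithelial markers summed to 2105 CPM, against 3094 to 4630 CPM. Among them Epcam stood at 27.4 CPM, against 205 and 198 CPM in the untreated libraries, while Scgb1a1 stood at 210 CPM, against 4.41 and 4.77 CPM. The 10 leukocyte markers summed to 170 CPM, against 7.82 to 17.4 CPM. Vcam1 stood at 268 CPM, against 551 and 687 CPM. The part of these in the members' values was not tested. Among the partner lists, the proteoglycan substrates had 1 of 7 genes at 20 CPM or more higher and 2 lower, among them Vcan with 646 CPM in the dexamethasone library, against 2277 and 2375 CPM in the untreated libraries. The regulators had 3 of 10 higher, including Thbs1 with 1828 CPM, against 723 and 1025 CPM. Pcsk6 had 0.264 CPM, against 36.1 and 32.1 CPM in the untreated libraries.

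In single cells, 24 hours after injection, 47 members had a count in at least 1 of the 26 cells and 43 had at least 5 counts in a cell. Each group is 1 sample, since no animal is named, so no test was made and intervals cover counting error only. Among the 32 members at 20 CPM or more in the counts summed over cells, 8 were at least 2-fold higher and 11 at least 2-fold lower in dexamethasone cells; over all 7682 such genes 64.2% passed that fold, 29.3% higher and 35.0% lower, so the members' share of 59.4% was close to that of all genes. Dexamethasone cells held 215623 to 1781606 counts and saline cells 879285 to 1787997.

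Adam10 and Timp3 were detected in every cell, 15 of 15 after dexamethasone and 11 of 11 after saline. Adam10 summed to 434 CPM over dexamethasone cells (95% Poisson interval 423 to 446), against 239 CPM over saline cells (231 to 247). Timp3 summed to 499.6 CPM over dexamethasone cells (95% Poisson interval 488 to 512), against 631 CPM over saline cells (618 to 644). Single cells spread widely around these sums: Timp3 ran from 3.87 to 2004 CPM over dexamethasone cells, with a median of 183 CPM, against a median of 376 CPM and a highest value of 4716 CPM over saline cells. Adamts1, called in mesenchyme at 2 hours, summed to 616 CPM over dexamethasone cells (95% Poisson interval 603 to 629.7), against 586 CPM over saline cells (574 to 598), and was detected in 13 of 15 dexamethasone cells and 11 of 11 saline cells. Adamtsl2 summed to 519 CPM over dexamethasone cells (95% Poisson interval 507 to 532), against 139.8 CPM over saline cells (134 to 146), with a median of 178 CPM over dexamethasone cells and 59.4 CPM over saline cells. It was detected in 12 of 15 and 8 of 11 cells.

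Adamts17 summed to 426 CPM over dexamethasone cells (95% Poisson interval 415 to 437), against 206 CPM over saline cells (199 to 214). Adam12 summed to 279.6 CPM over dexamethasone cells (95% Poisson interval 271 to 289), against 0.202 CPM over saline cells (0.0417 to 0.591), with counts in 9 of 15 dexamethasone cells (60.0%, exact 95% binomial interval 32.3 to 83.7%) and 3 of 11 saline cells. Its highest cell held 65.3% of the dexamethasone counts. Adamts19 was detected in 10 of 15 dexamethasone cells and 2 of 11 saline cells, and Adamts9 summed to 105 CPM over dexamethasone cells (95% Poisson interval 99.5 to 111), against 20.4 CPM over saline cells (18.2 to 22.8). Mmp19 summed to 117 CPM over dexamethasone cells (95% Poisson interval 111 to 123), against 26.9 CPM over saline cells (24.4 to 29.7), from 4 of 15 dexamethasone cells and 3 of 11 saline cells. Adam19 summed to 143 CPM over dexamethasone cells (95% Poisson interval 136 to 149), against 59.1 CPM over saline cells (55.2 to 63.1), higher in dexamethasone cells where the mesenchymal pools had it lower. These sums rest on few cells: Adam19 was detected in 6 of 15 dexamethasone cells and 5 of 11 saline cells, with a median of 0 CPM in both groups. A single saline cell held 93.8% of the saline counts, and 1 dexamethasone cell held 45.2% of the dexamethasone counts. Mmp23 had counts in 3 dexamethasone cells, 84.7% of them in 1 cell, and in no saline cell.

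Among the members that were lower, Mmp2 summed to 227 CPM over dexamethasone cells (95% Poisson interval 219 to 235), against 746 CPM over saline cells (732 to 759.8), with 59.0 and 55.4 CPM as the medians over dexamethasone and saline cells, so the difference lay in the highest saline cells. Adamts15 summed to 3.12 CPM over dexamethasone cells (95% Poisson interval 2.24 to 4.24), against 116 CPM over saline cells (111 to 122). Its counts came from 1 of 15 dexamethasone cells and 4 of 11 saline cells. The saline cell with most of them had 14976 CPM of mesenchymal and 5283 CPM of endothelial markers. Adam17, Adam23, Adamts5, Adamts12 and Mmp11 were the other lower members with counts in both groups. Timp4, Mmp8, Adamtsl3 and Adamtsl5 had counts in saline cells alone, and mostly in 1 cell each. For Mmp8, the neutrophil collagenase, 99.9% of the counts were in the saline cell whose leukocyte markers summed to 7534 CPM. The mesenchymal markers of that cell summed to 11463 CPM. Timp4 was highest in a saline cell with 16385 CPM of smooth muscle markers, and Adamtsl3 in one with 54140 CPM of them. With no count in 15 cells the share of dexamethasone cells with a count could still be up to 21.8% (exact 95% binomial interval).

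**Figure D4:**
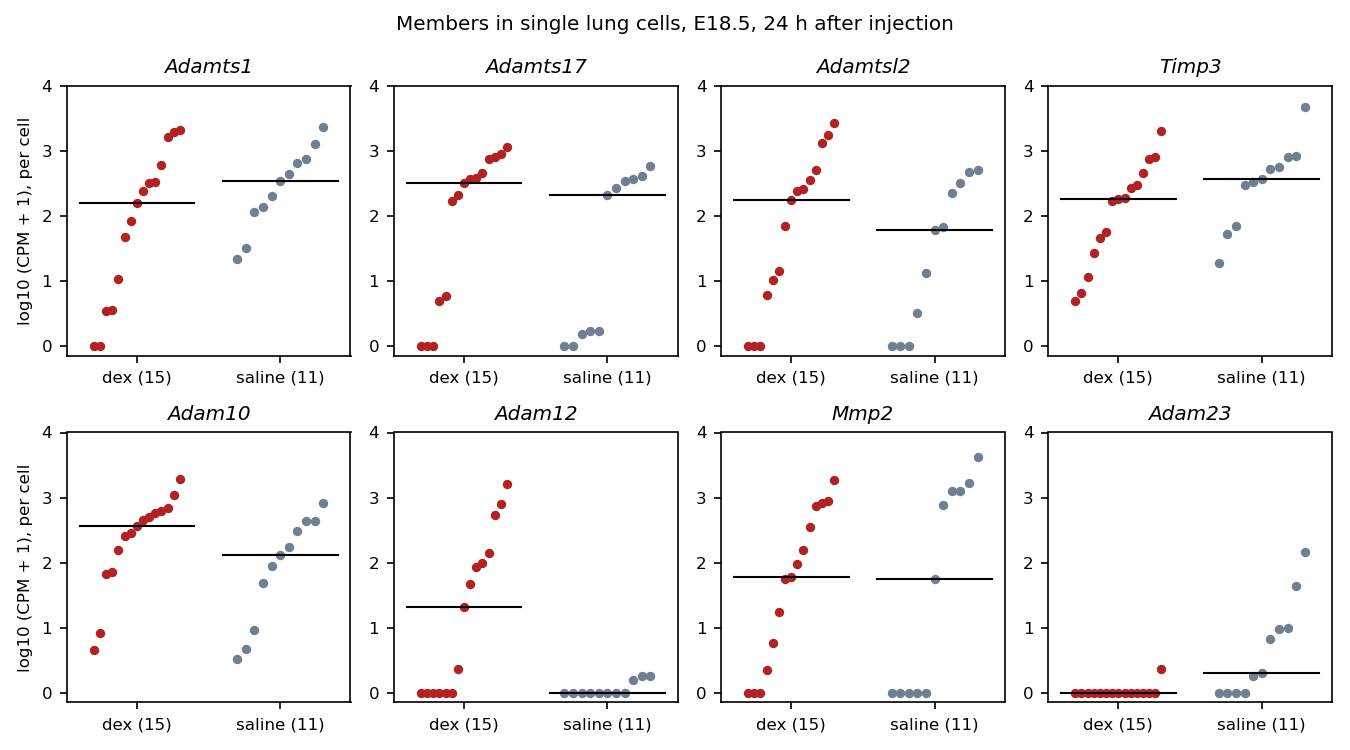
Log10 (CPM + 1) in each single cell of E18.5 lung, 24 hours after dexamethasone (15 cells, left) or saline (11 cells, right), for 8 members; each point is a cell, sorted by value, and the line is the median. Adamtsl2 medians are 178 CPM in dexamethasone cells and 59.4 CPM in saline cells, and cells of both groups run from 0 to above 500 CPM.

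The cells were mixed. All had counts of mesenchymal markers, while endothelial markers exceeded 100 CPM in 2 of 15 dexamethasone cells and 6 of 11 saline cells. Epithelial markers in sum exceeded it in 10 of 15 dexamethasone cells and 4 of 11 saline cells. The epithelial surface marker Epcam, however, had counts in 0 of 15 dexamethasone cells and 0 of 11 saline cells. The glucocorticoid target Tsc22d3 had a median of 46.2 CPM over dexamethasone cells and 469 CPM over saline cells. The part of this mixture in the members' values was not tested.

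Across the bulk libraries the 84 members together held 6506 to 9416 CPM in the dexamethasone pools, against 5489 to 5576 CPM in the saline pools. They held 7205 CPM in the dexamethasone CD106+ library, against 4160.5 to 5412 CPM in the untreated CD106+ libraries, and 2686 to 3141 CPM in the CD106- libraries. The Adamts genes made up most of the difference between the mesenchymal groups: they summed to 3743 to 5648 CPM in the dexamethasone pools, against 2630.3 to 2867 CPM in the saline pools. Adamts1 and Adamts17 held 55.2 to 75.0% of those counts in each mesenchymal pool, which rests on transcript length as well as level. The Adam genes summed to 689 to 809 CPM in the dexamethasone pools and 792 to 1056 CPM in the saline pools, which overlapped.

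**Figure D5:**
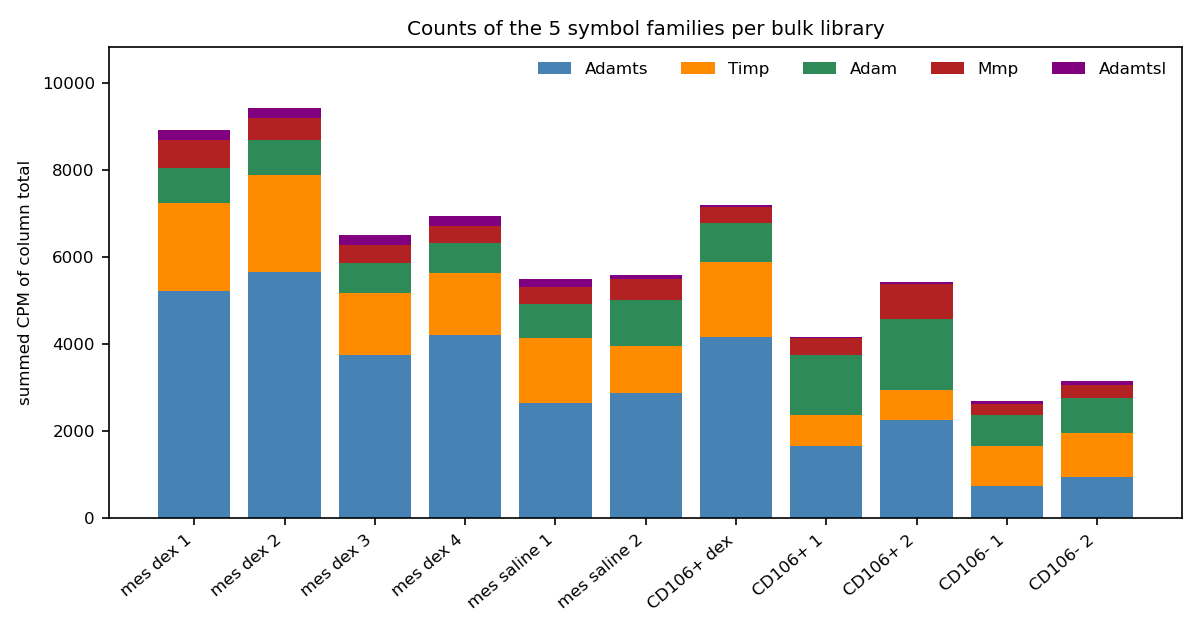
Summed CPM of column total of the members in each of the 11 bulk libraries, stacked by symbol family: mesenchymal pools after dexamethasone and saline, then the dexamethasone CD106+ library, the untreated CD106+ libraries and the CD106- libraries. The totals range from 2686 CPM in CD106- library 1 to 9416 CPM in dexamethasone pool 2.

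The members that were measured at appreciable levels were few: 31 of 84 had a mean of 20 CPM or more in at least 1 bulk group, including 15 of 19 Adamts, 7 of 33 Adam, 4 of 23 Mmp, 3 of 5 Adamtsl and 2 of 4 Timp genes. Another 20 exceeded 5 CPM in some library, and 33 never did. Of these, Mmp1a, Mmp10, Mmp20, Adam3 and Adam18 had no bulk count at all, and none of the 21 remaining ADAMs, mostly genes of the testis, had a group mean of 20 CPM. Among the collagenases, gelatinases and stromelysins Mmp2 was the only one of 8 to reach that level, and Mmp14 the only one of 6 membrane MMPs.

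Members differed in where their level was highest. Adamts12 averaged 221 CPM in the dexamethasone pools and 205 CPM in the saline pools, 105 CPM in the dexamethasone CD106+ library and 93.4 CPM in the untreated CD106+ libraries, and 7.36 CPM in the CD106- libraries. Adamts15 and Adamtsl4 were likewise highest in mesenchymal pools and lowest in CD106- libraries, where they averaged 6.87 and 2.61 CPM. Adam12 ran differently, at 346 CPM in the dexamethasone pools and 399 CPM in the saline pools, 302 CPM in the dexamethasone CD106+ library and 745 CPM in the untreated CD106+ libraries, and 201 CPM in the CD106- libraries. Adam10 averaged 85.2 CPM in the dexamethasone pools and 72.0 CPM in the saline pools, 101 CPM in the dexamethasone CD106+ library and 172 CPM in the untreated CD106+ libraries, and 223 CPM in the CD106- libraries, so that the untreated CD106 libraries were above the mesenchymal pools. These populations were sorted in separate experiments, so the order is a description with no test.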

How the data were processed

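The RNA data are 11 bulk libraries and 26 single cells; 4 chromatin accessibility samples were not analysed here. The authors deposited 4 tables of expected counts: the unit is read from the values, 5.35 to 9.21% of which were not whole in each bulk library. The build is mm10 per the submitters' processing notes, which also list Trim Galore, Bowtie2, TopHat2, Partek, MACS2 and HOMER without versions or roles. How reads were counted, and whether by strand, is not given in the sources used here. Since fractional counts may be reads split among genes, overlapping genes were treated as uncertain. The labels' protocols describe the CD106 selection (CD45-, CD31- and CD309-negative cells) for accessibility samples and not for RNA. The value column for the dexamethasone CD106+ library bears a code absent from the labels and was given to that group since its sample alone lists the table.

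Counts were rounded, filtered by filterByExpr, scaled by TMM and compared with edgeR's quasi-likelihood test (robust, Benjamini-Hochberg over all genes tested, threshold 0.05; R 4.3.3, edgeR 4.0.16, limma 3.58.1), each fit holding the 2 groups it compares. These tests were first checked on simulated counts. With 1 sample a group, log2 ratios of CPM with a pseudocount of 1 and a fold of 2 at 20 CPM or more are given without a test. Alternatives were other scalings, no filter, DESeq2 1.42.0, limma-voom, a replicate block, removal of each library, and covariates for Xist and chondrocyte markers. Members and lists were chosen with earlier results of these data known. Named are members past a threshold or fold, members with a mean of 20 CPM in a bulk group, and every Timp. Up to 4 genes a partner list are named by smallest p. Fkbp5, Tsc22d3, Vcam1, Xist and Ddx3y are checks of treatment, sort and sex. Mmp1a, Mmp10, Mmp20, Adam3 and Adam18, the partner genes of the dexamethasone CD106+ library and single marker genes were chosen after their values were seen. Positions are those of RefSeq on GRCm38.p6, in which all 84 members matched. Cells were not clustered and no doublet caller was run. No replicate pair agreed within sampling noise (chi-square per degree of freedom 9.94 to 40.4).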

Additional observations from a re-analysis of the deposited data

Results flagged for a closer look

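Adamts15 had 360 CPM in dexamethasone pool 1, while the other 3 dexamethasone pools had 196 to 204 CPM and the saline pools 57.6 and 62.2 CPM. The gap from pool 1 to its nearest neighbour took up more of the range of the 4 pools than chance gives in 19 of 20 groups. Without that pool the edgeR log2 fold change of Adamts15 was 1.81 (adjusted p = 0.0013). Pool 1 also had the smallest sum of chondrocyte markers, 18 CPM, against 54.4, 376 and 64.9 CPM in dexamethasone pools 2, 3 and 4. Whether this bears on the Adamts15 gap was not tested. Timp1 had 4.05 CPM in dexamethasone pool 3, while the other dexamethasone pools had 0.377 to 0.710 CPM and both saline pools had no count. Timp1 was too low to test. Of 33 members examined in this way among the 4 dexamethasone pools these 2 stood apart, and chance gives about 1 in 20.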

How the results depend on the processing

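The count of members called in dexamethasone against saline mesenchyme, 5, became 9 without the low-count filter, 8 with DESeq2, 3 with the replicate number as a block and 0 with the chondrocyte marker covariate (25 of all genes still passed there, and 5 members had an unadjusted p under 0.05); leaving out 1 library gave 1 to 6, with 3 without dexamethasone pool 1 or 4 and 1 without saline pool 2. The cause was not tested. Over all genes the count of 306 became 598, 512, 154 and 25 under the same 4 alternatives, 186 with Xist as a covariate and 179 to 335 with a library left out, the lowest without dexamethasone pool 1. Other scalings, limma-voom, non-robust estimation, and removal of Rn45s or of genes on X and Y kept the mesenchyme member count within 1.5 times. For CD106+ against CD106- cells the member count of 16 also stayed within 1.5 times under the alternatives run, while the count of all genes, 1239, ranged from 546 (without CD106- library 1) to 2756 (without CD106+ library 1). No member reversed its direction where it was called. Deviations of libraries with the same replicate number correlated at -0.05 and 0.05 in mesenchyme and at 0.01 in the CD106 fractions. With 2 libraries in a group such correlations cannot tell whether the numbers pair the samples, and the labels do not state it. In the CD106 comparison the block gave 14 members higher and 3 lower, against 14 and 2 without it. In the dexamethasone CD106+ library, an edgeR fit that takes it to vary like the other groups called 5 members higher and 4 lower of 50, while 13.4% of all 13708 genes were called. With 2 saline pools and 2 libraries a fraction, changes in low members such as Timp1 were not detectable at this depth. On simulated counts the mesenchyme test recovered 8.49% of planted log2 changes of 1 and 63.2% of those of 2. The CD106 test recovered 20.83% and 77.55%. A member that did not pass may therefore still have changed.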
